A study of Mus musculus with 7 samples.

Results

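Cassette exons are internal coding exons that some transcripts of a gene include and others skip. Srsf3 peaks were assigned to them by annotation alone: most of the nucleotides of a peak had to lie in a wholly coding internal exon, on the same strand, that falls inside an intron of at least 1 other protein-coding transcript of the same gene in GENCODE (release M39, GRCm39). By this rule 1726 of the 14780 distinct peaks in the series lay in annotated cassette exons. The PDGF-AA list held 1122 of them among its 8384 peaks (13.4%), and the untreated list held 604 among 6396 (9.44%). They occupied 1243 exons of 998 genes.

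The study mapped Srsf3 on RNA by eCLIP, in which UV light crosslinks a protein to the RNA it touches and the fragments recovered with an antibody are sequenced. The cells were iMEPM, an immortalized line of palatal mesenchyme derived from a Cdkn2a-/- mouse embryo. Serum-starved cells were given PDGF-AA, which activates PDGFRα, at 10 ng/mL for 1 hour (1 Srsf3 library) or were not stimulated (2 Srsf3 libraries). Under ligand, PI3K and Akt signaling is known to reach SR proteins through phosphorylation. Each condition has 1 peak list called over its libraries, so no value below has a replicate check, no test between conditions was possible, and treatment, library number and depth cannot be told apart. The lists give intervals without scores or read numbers, the depth behind a peak is unknown, and the intervals printed with shares (95%, Wilson) cover counting error only.

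Srsf3 is the smallest member of the SR protein family, which bind exonic sequences through an RNA recognition motif and recruit spliceosome components through a serine- and arginine-rich domain. An SR protein bound within a cassette exon commonly favours its inclusion, whereas binding in a neighbouring exon or intron can have the opposite effect. Cassette exons whose length is a multiple of 3 can be added or removed without shifting the reading frame. A peak on spliced or unspliced RNA looks the same in these lists, and exon inclusion was not measured in them, so an exon without a peak and an exon left out of the mRNA of these cells cannot be told apart.

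The sequences below show exons that are skipped in a transcript of the consensus coding sequence (CCDS) set and that carried a peak. They were chosen, after their values were seen, as short exons of genes with well-described isoforms. Each line is a whole exon from the GRCm39 genome on the transcript strand, 5′ to 3′, with the nucleotides under a peak of the named list in capitals. Of the member peaks of both lists, 332 began exactly 1 nt above the lower genomic edge of the exon and 4 on it, and 290 ended 1 nt above the upper edge and 6 on it. The deposited intervals are therefore offset by 1 nt on the genome, and the capitals, which follow the deposited coordinates, share this offset.

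The first 3 of these exons carried peaks of both lists. In Kdm1a, a histone demethylase, it was the 60-nt exon 3 of 20 (minus strand, chr4:136309351-136309410), in Clk4, a kinase that phosphorylates SR proteins, the 91-nt exon 4 of 13 (plus strand, chr11:51163905-51163995), and in Pkm, pyruvate kinase, the downstream member of a mutually exclusive pair of 167-nt exons (plus strand, chr9:59582851-59583017). The upstream member of that pair (plus strand, chr9:59582312-59582478) carried no peak in either list and is shown for comparison.
Kdm1a in the PDGF-AA list: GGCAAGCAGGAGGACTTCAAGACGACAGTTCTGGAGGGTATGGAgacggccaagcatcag
Kdm1a in the untreated list: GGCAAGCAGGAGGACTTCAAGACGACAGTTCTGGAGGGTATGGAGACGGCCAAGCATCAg
Clk4 in the PDGF-AA list: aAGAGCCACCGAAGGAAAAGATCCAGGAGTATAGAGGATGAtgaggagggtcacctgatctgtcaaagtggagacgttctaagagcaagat
Clk4 in the untreated list: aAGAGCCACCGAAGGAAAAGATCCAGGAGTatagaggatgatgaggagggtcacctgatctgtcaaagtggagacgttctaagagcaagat
Pkm downstream exon in the PDGF-AA list: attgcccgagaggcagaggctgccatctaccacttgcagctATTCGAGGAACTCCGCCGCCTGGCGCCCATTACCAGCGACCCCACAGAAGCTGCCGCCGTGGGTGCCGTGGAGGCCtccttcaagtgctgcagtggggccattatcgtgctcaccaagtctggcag
Pkm downstream exon in the untreated list: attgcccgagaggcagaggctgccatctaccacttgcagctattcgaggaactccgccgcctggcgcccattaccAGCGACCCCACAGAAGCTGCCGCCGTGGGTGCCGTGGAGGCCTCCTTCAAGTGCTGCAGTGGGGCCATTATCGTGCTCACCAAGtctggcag
Pkm upstream exon, no peak: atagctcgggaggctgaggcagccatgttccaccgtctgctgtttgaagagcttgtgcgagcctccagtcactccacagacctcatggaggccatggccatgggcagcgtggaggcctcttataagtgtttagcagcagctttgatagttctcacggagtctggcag

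The next 5 exons had a peak in the PDGF-AA list alone. They are the 49-nt exon 11 of 13 of Tcf7l2, a transcription factor of the Wnt pathway (plus strand, chr19:55912328-55912376), the 45-nt exon 3 of 12 of Gnas, which separates the long and short forms of the stimulatory G protein alpha subunit (plus strand, chr2:174178540-174178584), the 72-nt exon 6 of 15 of Hnrnpk, an RNA-binding protein (minus strand, chr13:58544002-58544073), and exons 9 and 10 of 19 of Cd44, a hyaluronan receptor with a block of variable exons (minus strand, chr2:102673181-102673294 and chr2:102672606-102672722).
Tcf7l2 in the PDGF-AA list: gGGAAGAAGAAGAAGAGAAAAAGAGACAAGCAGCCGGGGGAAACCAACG
Gnas in the PDGF-AA list: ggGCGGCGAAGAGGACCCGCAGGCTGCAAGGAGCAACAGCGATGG
Hnrnpk in the PDGF-AA list: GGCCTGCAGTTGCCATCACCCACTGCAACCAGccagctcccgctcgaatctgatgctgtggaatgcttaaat
Cd44 exon 9 in the PDGF-AA list: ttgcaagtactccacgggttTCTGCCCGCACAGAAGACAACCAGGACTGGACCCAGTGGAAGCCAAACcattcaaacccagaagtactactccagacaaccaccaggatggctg
Cd44 exon 10 in the PDGF-AA list: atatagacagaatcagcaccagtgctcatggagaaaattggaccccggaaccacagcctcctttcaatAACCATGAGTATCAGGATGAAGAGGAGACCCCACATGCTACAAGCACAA

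The last 2 had a peak in the untreated list alone. They are the 126-nt exon 2 of 9 of Tpm1, a tropomyosin that lines actin filaments (minus strand, chr9:66955406-66955531), and the 108-nt exon 11 of 24 of Bag6, a chaperone of tail-anchored membrane proteins (plus strand, chr17:35361474-35361581).
Tpm1 in the untreated list: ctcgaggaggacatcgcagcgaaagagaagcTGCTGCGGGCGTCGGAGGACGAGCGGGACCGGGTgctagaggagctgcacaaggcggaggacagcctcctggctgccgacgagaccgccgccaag
Bag6 in the untreated list: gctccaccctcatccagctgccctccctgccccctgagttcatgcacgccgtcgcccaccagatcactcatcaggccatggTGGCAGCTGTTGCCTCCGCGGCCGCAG

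The Tcf7l2 peak held a purine run with 9 overlapping matches to GAAGAA or to its shifted forms AGAAGA and, in turn, AAGAAG, whereas the peaks in Kdm1a, Clk4, Pkm, Gnas, Hnrnpk, Tpm1 and Bag6 held none. The Pkm peaks were GC-rich, with 69.7% G and C in the PDGF-AA peak and 64.3% in the untreated peak, and they shared nucleotides 76 to 117 of the exon. The unbound upstream exon, which marks the M1 form of the enzyme, had 56.3% G and C, and the bound downstream exon, which marks the M2 form, had 62.9%. Pairs were also drawn from cassette exons with no further cassette exon between them, though other exons could lie between. No protein-coding transcript held both exons, and CCDS transcripts used each without the other. Of 33 such pairs in 31 genes, 29 had no peak in either exon, and none had a peak in both. Of all 11619 cassette exons compared 10.7% were bound in either list, and nothing is read from the small number of bound pairs. The other pairs bound besides Pkm were in Pdlim5 (upstream exon, both lists), Wnk1 (upstream exon, PDGF-AA list alone) and Zfp384 (downstream exon, PDGF-AA list alone). The Wnk1 and Zfp384 pairs were 8164 and 5730 nt apart. The intron on the partner's side of the bound exon spanned only 1672 and 648 nt, so another exon lay between.

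The evidence for skipping differed widely between member exons. Only 71 of the 1243 bound exons (5.71%) were skipped in a CCDS transcript and held by another, 257 were skipped in another transcript outside the long-read models, and 915 were skipped only in TAGENE models, which GENCODE builds automatically from long-read sequencing. The label cassette exon thus rests on automated models for most members. The canonical transcript held 95.6% of the bound exons (94.3 to 96.6) and 81.2% of the unbound cassette exons (80.4 to 81.9) of the 2611 genes that had a cassette exon and a peak in an internal coding exon, and it skipped 2.25% of the bound and 17.1% of the unbound ones. Against the 5210 unbound cassette exons of the 998 genes with a bound one, it held 95.6% of the bound and 84.5% of the unbound exons. Of the bound exons, 59.1% were skipped by 1 transcript, against 48.3% of the unbound ones. For the median bound exon 12.5% of its gene's transcripts that span it skipped it, against 14.3% for the median unbound cassette exon.

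Cassette exons were bound somewhat less often than never-skipped exons, with intervals that did not overlap in the PDGF-AA list and did in the untreated list. Of all peaks in internal coding exons, 21.2% of 5303 in the PDGF-AA list (20.1 to 22.3) and 22.1% of 2729 in the untreated list (20.6 to 23.7) lay in a cassette exon. In the 2611 genes compared, 8.65% of 11619 cassette exons (8.15 to 9.18) and 9.79% of 29473 never-skipped exons (9.45 to 10.1) were bound in the PDGF-AA list, against 9.46% of both classes together. In the untreated list 4.69% of cassette exons (4.32 to 5.09) and 5.07% of never-skipped exons (4.82 to 5.32) were bound, against 4.96% of both. Peaks covered 36.4 nt per kb of cassette exon and 36.9 nt per kb of never-skipped exon in the PDGF-AA list, and 17.9 and 16.6 nt per kb in the untreated list. The number of bound cassette exons in the PDGF-AA list was 1.84 times that in the untreated list, and for never-skipped exons the ratio was 1.93.

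The share bound differed with the evidence for skipping. Exons skipped only in long-read models were bound in 10.4% (9.74 to 11.2) and 5.54% (5.03 to 6.10) of cases in the PDGF-AA and untreated lists, those skipped in another transcript outside these models in 5.79% (5.08 to 6.58) and 2.95% (2.45 to 3.54), and those skipped in a CCDS transcript in 6.50% (5.03 to 8.37) and 5.32% (4.0 to 7.04). In the untreated list the interval of the CCDS group contains the share of the never-skipped exons, but this rests on long exons. Among exons of up to 300 nt, 3.98% of the CCDS group (2.84 to 5.57) and 8.89% of never-skipped exons (8.57 to 9.23) were bound after PDGF-AA, and 3.11% (2.12 to 4.56) and 4.70% (4.46 to 4.96) without it. Because genes differ in how many peaks they carry, the bound exons were also set against the number each gene's own internal coding exons would give if its bound exons fell on them evenly. Cassette exons reached 0.808 of that number in the PDGF-AA list (1005 against 1244) and 0.851 in the untreated list (545 against 640.1). The ratio was 0.961 and 0.986 for exons skipped only in long-read models, and 0.565 and 0.569 for those skipped in another transcript. For the CCDS group it was 0.559 in the PDGF-AA list (55 exons against 98.4) and 0.881 in the untreated list (45 against 51.05), which is the widest gap between the lists among these groups. Weighting exons by length gave 0.833 and 0.878 for all cassette exons, and 0.565 and 0.805 for the CCDS group.

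**Figure D1:**
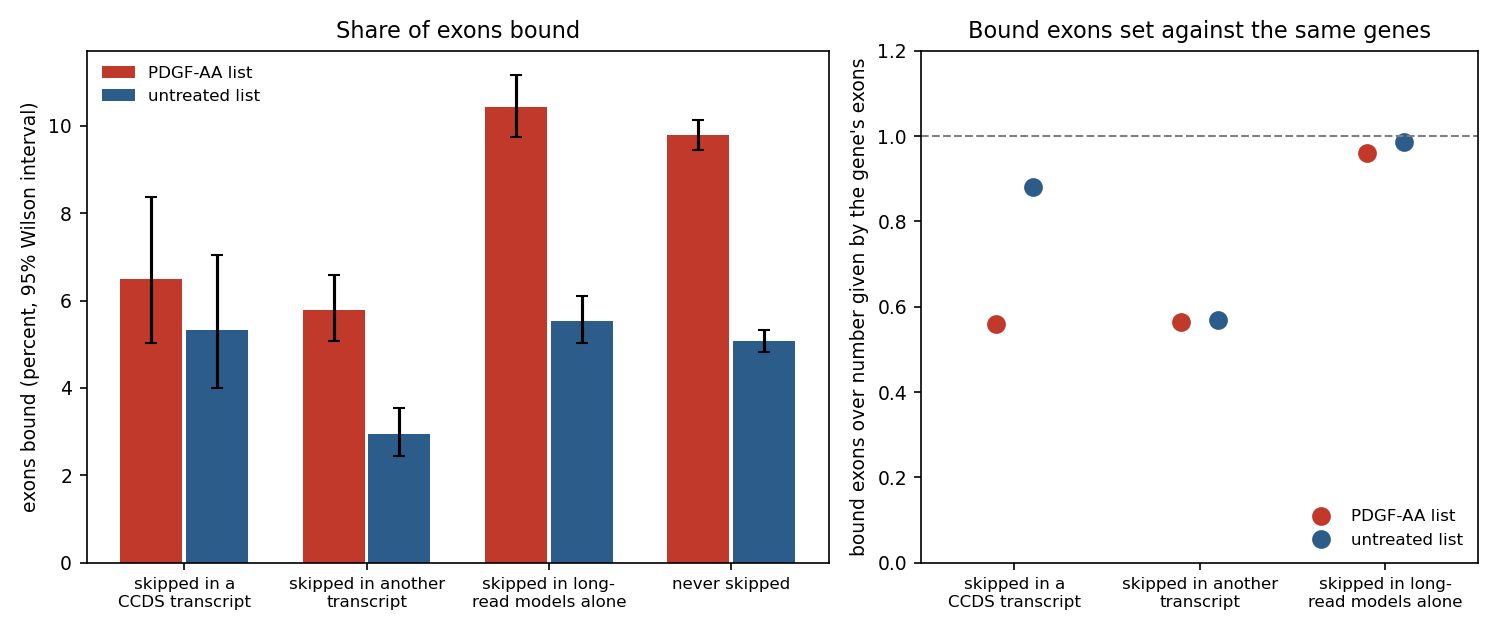
Left, percent of internal coding exons bound in the PDGF-AA list (red) and in the untreated list (blue) by the evidence for skipping, with 95% Wilson intervals that cover counting error only. Right, bound cassette exons divided by the number each gene's own exons would give, where the dashed line at 1 marks equal use. Exons skipped in long-read models alone lie at 0.961 and 0.986, the other groups lower.

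Long exons were bound most often in both classes. In the PDGF-AA list 2.03% of cassette exons under 51 nt (1.37 to 3.01), 8.47% of those over 100 and up to 150 nt (7.61 to 9.42) and 40.9% of those over 300 nt (35.9 to 46.0) were bound. The corresponding never-skipped exons were bound in 3.31%, 9.53% and 34.9% of cases (32.0 to 37.9 for the longest). In the untreated list the shares were 2.03%, 4.89% and 20.4% of cassette exons (16.6 to 24.9 for the longest), against 2.27%, 4.85% and 15.3% of never-skipped exons (13.2 to 17.6). The intervals of the exon classes overlapped in both lists for the longest exons. They did not for exons of 51 to 100 nt in the untreated list, where 3.52% of cassette exons (2.99 to 4.14) and 4.77% of never-skipped exons (4.33 to 5.25) were bound.

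**Figure D2:**
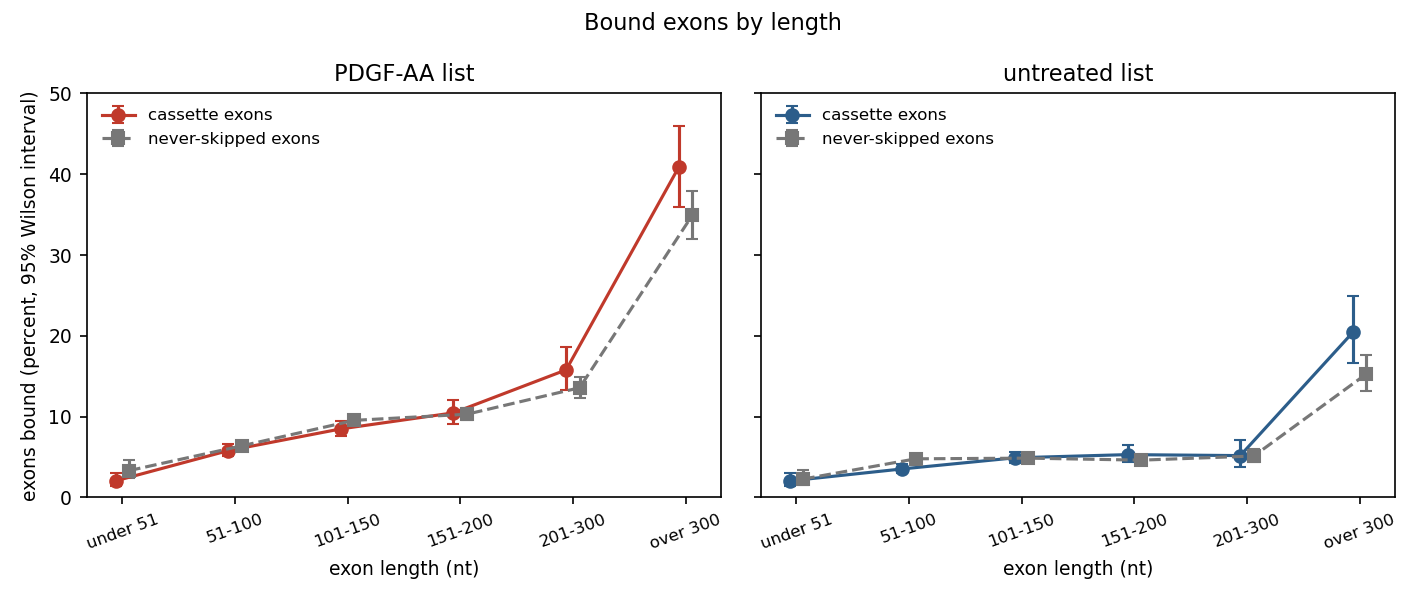
Percent of exons bound against exon length in nt, for cassette exons (circles) and never-skipped exons (squares), in the PDGF-AA list (left) and the untreated list (right), with 95% Wilson intervals. In the PDGF-AA list the share is higher in each longer bin, up to 40.9% of cassette exons over 300 nt; in the untreated list it is nearly level from over 100 to 300 nt in both classes, and 20.4% of cassette exons over 300 nt are bound.

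Bound cassette exons were longer and richer in G and C and in purines than unbound ones. The median length was 140 nt in the PDGF-AA list (quartiles 100 and 203) and 129 nt in the untreated list (92 and 183), against 105 nt for unbound cassette exons (73 and 144). The median GC content was 54.3% (50.2 and 58.1) and 55.6% (51.4 and 59.4), against 51.2% (45.4 and 56.4) for unbound ones, and the median purine content 56.8% and 55.7%, against 52.8%. The never-skipped exons of these genes showed the same order, with 143 nt and 132 nt in the PDGF-AA and untreated lists against 122 nt unbound. Exons bound in the untreated list alone were the shortest, at a median of 120.5 nt, had the highest median GC content, 56.1%, and the shortest flanking introns, with medians of 767.5 nt upstream and 775.5 nt downstream. Exons bound in the PDGF-AA list alone had medians of 141 nt, 54.0%, 1376 nt and 1342 nt. The quartile ranges of the groups overlapped widely. A length that is a multiple of 3 was found in 53.8% of exons bound in the PDGF-AA list (50.7 to 56.9), 55.4% in the untreated list (51.2 to 59.5) and 57.9% of unbound cassette exons (57.0 to 58.9). Within the 998 genes with a bound cassette exon the order turned round, with 54.0% of the bound and 52.5% of the unbound ones. By evidence, it was found in 79.8% of CCDS-skipped exons, 65.0% of those skipped in another transcript, 50.8% of those skipped only in long-read models and 37.4% of never-skipped exons. Frame-preserving exons were thus most frequent in the group with the fewest members.

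Of the 1243 bound cassette exons, 307 (24.7%, 22.4 to 27.2) were bound in both lists, 698 (56.2%) in the PDGF-AA list alone and 238 (19.1%) in the untreated list alone. Alone means that no peak of the other list had most of its nucleotides in the exon. For all 5804 internal coding exons bound in either list the shares were 26.2%, 56.7% and 17.1%, close to those of the cassette exons. Counted by peak, 28.8% of PDGF-AA peaks in cassette exons (26.2 to 31.5) and 54.3% of untreated ones (50.3 to 58.2) overlapped a peak of the other list. Of all peaks 29.6% and 38.8% did so, and of peaks in never-skipped exons of the same genes 29.4% and 58.4%. Where an exon was bound in both lists, the peaks overlapped by 1 nt or more in 288 of the 307 exons (93.8%), against 873 of 907 never-skipped exons (96.3%). The nucleotides under peaks of both lists made up a median of 66.3% of those under a peak of either list (quartiles 45.7 and 85.2), against 69.4% in never-skipped exons (48.6 and 85.7). How much overlap short exons alone would give was not tested. The median cassette exon peak was 48 nt wide after PDGF-AA (9 to 251 nt) and 46 nt without it (7 to 328 nt).

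The group of 71 exons skipped in CCDS transcripts, in 62 genes, split differently: 29 were bound in both lists (40.8%, 30.2 to 52.5), 26 in the PDGF-AA list alone (36.6%, 26.4 to 48.2) and 16 in the untreated list alone (22.5%, 14.4 to 33.5). Exon length went with this split. The 29 exons bound in both lists had a median length of 801 nt and 17 of them were over 300 nt, whereas the 26 PDGF-AA-alone exons had a median of 141 nt and the 16 untreated-alone exons of 126 nt. Among those of up to 300 nt, 12 of 45 were bound in both lists (26.7%, 16.0 to 41.0), 20 in the PDGF-AA list alone and 13 in the untreated list alone, against 25.2%, 56.7% and 18.1% of 3091 never-skipped exons of that length.

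The 12 short exons bound in both lists belonged to Kdm1a, Hdac7, Nsmf, Clk4, Cux1, Pdlim7, Tmpo, Ivns1abp, Arhgef40, Pkm, Arid4b and Npcd. The paired peaks overlapped in all 12. In Arhgef40, a guanine nucleotide exchange factor, the PDGF-AA peak ran from nucleotide 81 to 145 of the 144-nt exon and the untreated peak from 84 to 145. In Arid4b, a chromatin protein, the PDGF-AA peak covered nucleotides 2 to 115 and the untreated peak 12 to 91 of a 261-nt exon, with 16 and 13 purine hexamer matches. In Pkm the peaks were displaced, covering nucleotides 42 to 117 in the PDGF-AA list and 76 to 159 in the untreated list.

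Exons with a peak in the PDGF-AA list alone included, beside those printed above, Runx1 (192 nt, nucleotides 0 to 27 under the peak), a transcription factor of skeletal and blood development, the histone deacetylase gene Hdac7 (195 nt, 21 to 99) and the cytoskeletal gene Ablim1 (141 nt, 39 to 94). Position 0 is the base before the exon, and a position 1 above the exon length, as in Arhgef40, is the base after it; both follow from the 1-nt offset. Exons with a peak in the untreated list alone included the transcription factor gene Tfe3 (105 nt, 78 to 100), the focal adhesion kinase relative Ptk2b (126 nt, 84 to 125) and the receptor phosphatase gene Ptprs (194 nt, 132 to 164). Among the CCDS-skipped exons of up to 300 nt, the 20 PDGF-AA-alone exons held 21 PDGF-AA peaks, of which 9 reached the 5′ splice site and 8 held 1 of the purine hexamers, with a median GC content of 57.5%. Of all PDGF-AA peaks in cassette exons, long exons included, 21.7% reached that site and 32.4% held a hexamer, with a median GC content of 56.5%. The 13 untreated-alone exons held 13 untreated peaks, of which 6 reached the 5′ splice site and 1 held a hexamer, with a median GC content of 66.7%. Of all untreated peaks in cassette exons, again of any length, 38.6% and 22.0% did so, with a median GC content of 58.7%. Among the 13 untreated-alone peaks, that in Arpc4 ran past the 5′ splice site and overlapped a PDGF-AA peak that was not counted in the exon. In the exons of up to 300 nt bound in both lists, 5 of 12 PDGF-AA and 3 of 12 untreated peaks reached the 5′ splice site.

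**Figure D3:**
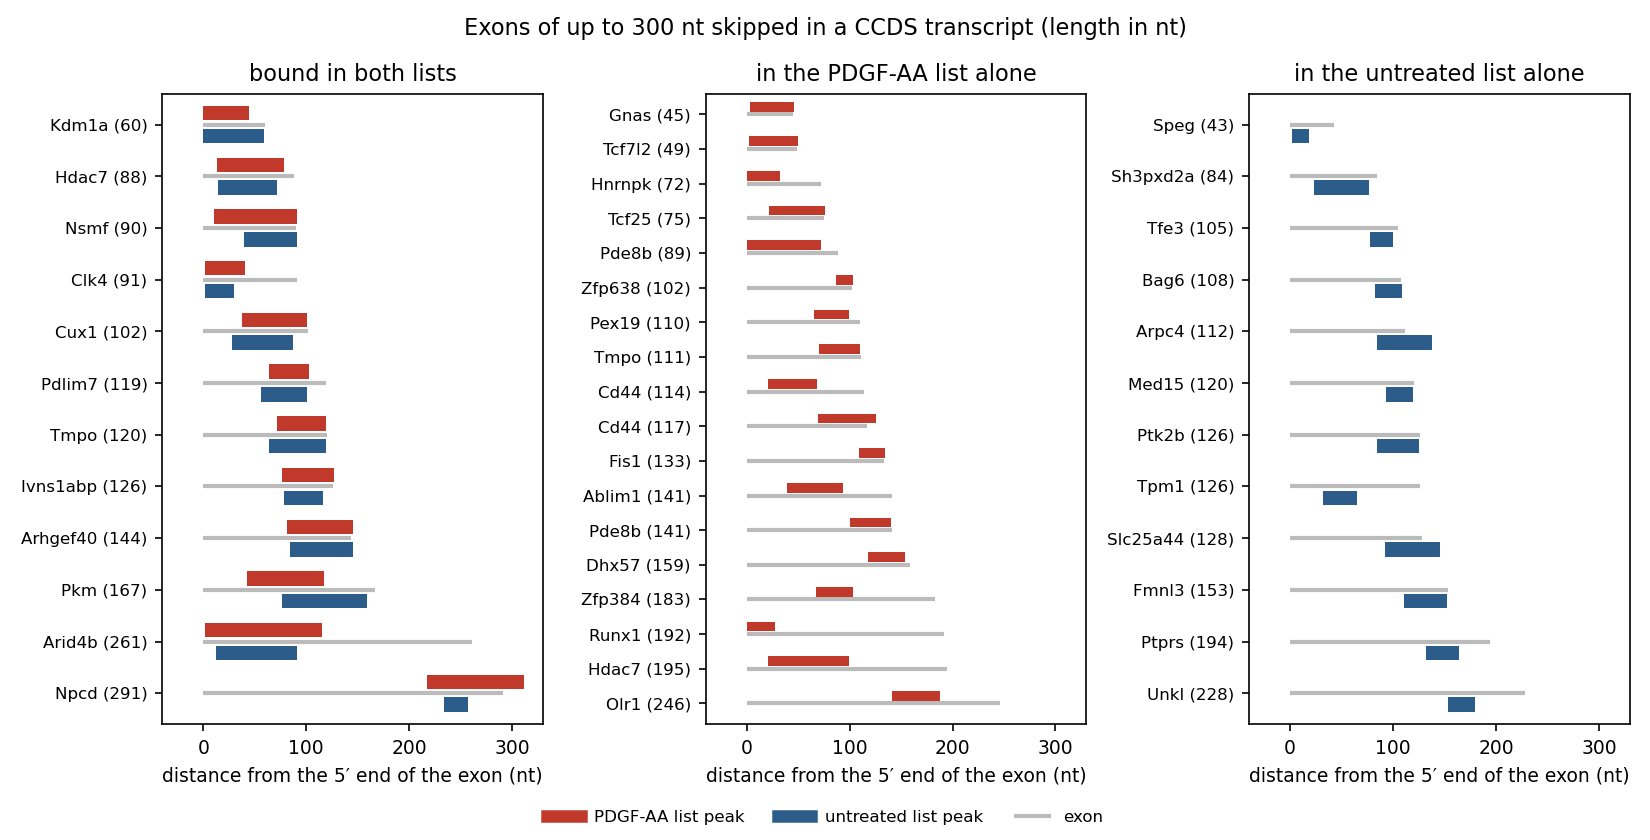
Peaks in 42 of the 45 exons of up to 300 nt that are skipped in a CCDS transcript, drawn by distance from the 5′ end of the exon in nt (grey line, exon; red, PDGF-AA list peak; blue, untreated list peak). In the 12 exons bound in both lists the peaks of the lists overlap, and share between 32.0% and 95.3% of the nucleotides under a peak of either list (median 73.5%), with the red and blue bars displaced in Pkm and the blue bar short in Npcd; 18 of the exons drawn carry a peak in the PDGF-AA list alone and 12 in the untreated list alone.

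The exons with the most peaks were very long. The 3381-nt exon 31 of 32 of Plec (minus strand, chr15:76062719-76066099), which encodes the rod of the cytoskeletal linker plectin, carried 11 PDGF-AA and 11 untreated peaks that covered 1017 and 895 nt. A 2703-nt exon of Dst (plus strand, chr1:34216877-34219579), which encodes the related linker dystonin, carried 9 peaks in each list, covering 1064 and 739 nt, and a 5292-nt exon of the same gene carried 3 PDGF-AA and 4 untreated peaks. Exon 8 of 12 of Ankrd11 (6518 nt, minus strand, chr8:123616378-123622895), a chromatin regulator, had 8 PDGF-AA and 5 untreated peaks over 857 and 815 nt. Exon 16 of 25 of Clip1 (2127 nt, minus strand, chr5:123751131-123753257), a microtubule plus-end protein, had 5 and 4 peaks over 408 and 295 nt. Exon 3 of 5 of Son (5970 nt, plus strand, chr16:91451499-91457468), a splicing cofactor, had 5 and 3 peaks over 588 and 234 nt. The evidence for skipping differed between these exons. The Plec exon was skipped by 1 transcript and held by 13, and that of Ankrd11 skipped by 1, a long-read model, and held by 5. The Clip1 exon was held by 1 transcript, the canonical one, and skipped by 81, of which 6 lay outside the long-read models. The 2703-nt Dst exon was held by 1 and skipped by 5, the canonical one among them. The Son exon was skipped by 3 and held by 4. In the 5292-nt exon of Dst, 3 of the 4 untreated peaks overlapped no PDGF-AA peak. In the other exons of this group every untreated peak overlapped a PDGF-AA peak except 1 in Ankrd11, at nucleotides 2093 to 2196. In Son the 3 untreated peaks all fell near the 3′ end of the exon, at nucleotides 5412 to 5464, 5490 to 5597 and 5772 to 5844, while PDGF-AA peaks also lay at nucleotides 745 to 873, 1734 to 1788 and 3211 to 3282.

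**Figure D4:**
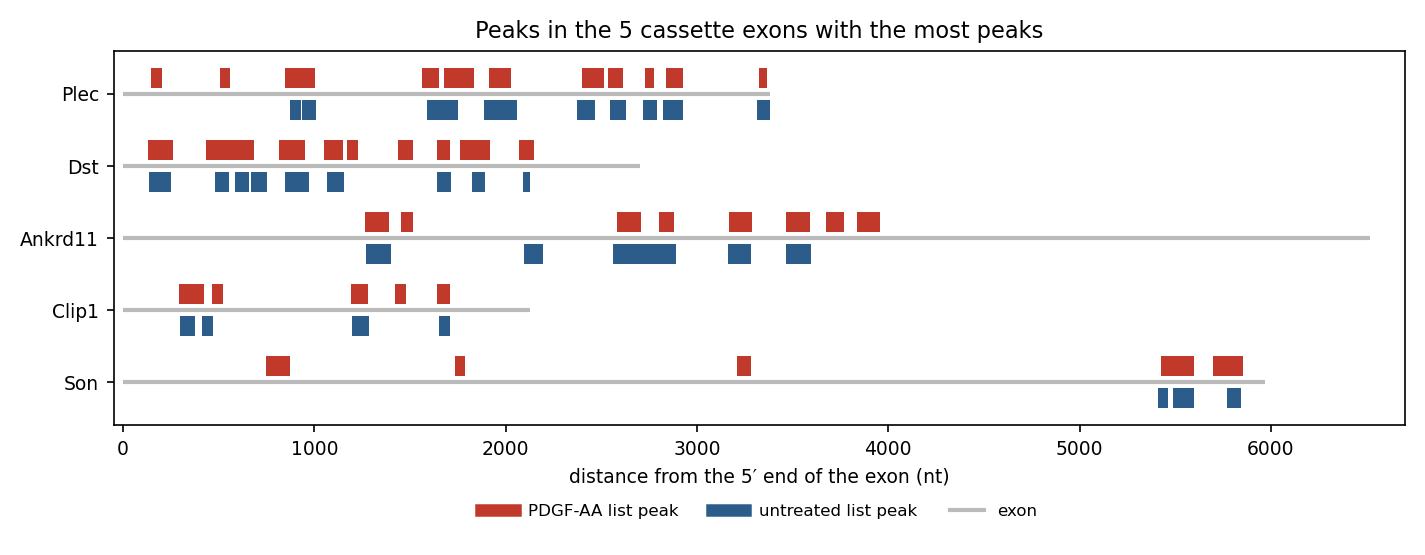
Peaks in the 5 cassette exons with the most peaks over both lists, drawn by distance from the 5′ end of the exon in nt (grey line, exon; red, PDGF-AA list peak; blue, untreated list peak). Plec carries 11 peaks in each list and Dst 9; in Son the untreated peaks lie near the 3′ end.

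Among exons bound in only 1 list, the PDGF-AA-alone exons with the most covered nucleotides were in Pnisr (170 nt in 2 peaks), Specc1 (150 nt in 2 peaks), exon 9 of Clip1 (150 nt in 2 peaks), Apbb2 (140 nt) and Incenp, a subunit of the chromosomal passenger complex, whose 120-nt exon was covered over 119 nt. Among the untreated-alone exons with the most were those in Ythdc1, a nuclear reader of methylated adenosine (92 nt), the translation initiation factor gene Eif4b (74 nt in 2 peaks), Cabin1 (73 nt) and the double-stranded RNA-binding protein gene Stau1 (72 nt in 2 peaks). The exons named here were skipped in long-read models alone, except that of Specc1.

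Short exons were rarely bound. Of the bound exons 5 (0.402%, 0.172 to 0.938) were at most 30 nt long, against 444 of 10376 unbound cassette exons (4.28%, 3.91 to 4.69). The rule itself lowers this number, because a wide peak cannot have most of its nucleotides in so short an exon. The 5 bound ones are printed as the shortest exons with a peak. They were exon 2 of 3 of the ribosomal protein gene Rpl41 (minus strand, chr10:128384527-128384549), exon 3 of 41 of Brwd1 (minus strand, chr16:95883178-95883207), exon 8 of 10 of Luc7l (plus strand, chr17:26498307-26498336), exon 12 of 18 of Stk39 (minus strand, chr2:68144708-68144737) and exon 13 of 15 of the histone chaperone gene Nap1l4 (minus strand, chr7:143075138-143075167).
Rpl41 in the PDGF-AA list: TGGCGGAAGAAGAGAATGCGCAg
Nap1l4 in the PDGF-AA list: ttTGAAGAAGGCGAGGAAGGTGAAGAGGAg
Brwd1 in the PDGF-AA list: GTGCTGGTGCAGGAGCTGGAGCAGTACCAg
Brwd1 in the untreated list: GTGCTGGTGCAGGAGCTGGAGCAGTACCAG
Luc7l in the untreated list: gTCTGGATCAAGAACCcgagatcgcagaag
Stk39 in the untreated list: TCACGAAGAGTAAAAGAAGAGAactcagag

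Rpl41, Nap1l4 and Stk39 held 3, 2 and 2 purine hexamer matches under their peaks, and Brwd1 and Luc7l held none.

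A smaller share of PDGF-AA peaks than of untreated peaks reached the 5′ splice site. With 1 list per condition this difference was not tested, and the intervals below cover counting error only. A peak reached the 5′ splice site, to within 1 nt, and not the 3′ splice site in 19.4% of PDGF-AA peaks in cassette exons (17.2 to 21.9) and 34.9% of untreated ones (31.2 to 38.8). It extended more than 1 nt into the downstream intron in 2.05% (1.37 to 3.06) and 12.3% (9.87 to 15.1). The 3′ splice site alone was reached by 14.9% of PDGF-AA peaks (12.9 to 17.1) and 9.60% of untreated peaks (7.50 to 12.2), both edges by 2.23% and 3.64%, and 63.5% and 51.8% lay inside the exon. With the exon divided into 5 equal bins, the last bin held the centres of 19.8% of PDGF-AA peaks (17.6 to 22.2) and 32.6% of untreated peaks (29.0 to 36.5), and the first bin 12.6% and 7.62%. The lists stood in the same order in never-skipped exons of these genes, where the 5′ splice site alone was reached by 21.9% of PDGF-AA peaks (20.5 to 23.4) and 39.0% of untreated peaks (36.7 to 41.5). With CCDS transcripts only, the 5′ splice site alone was reached by 15 of 75 PDGF-AA peaks (20%) and 9 of 61 untreated peaks (14.8%). The lists did not stand in that order there, but on few peaks, most of them in exons over 300 nt. In CCDS-skipped exons of up to 300 nt bound in both lists, 5 of 12 PDGF-AA and 3 of 12 untreated peaks reached the site, with or without the 3′ splice site. In those bound in 1 list alone, 9 of 21 PDGF-AA and 6 of 13 untreated peaks did.

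**Figure D5:**
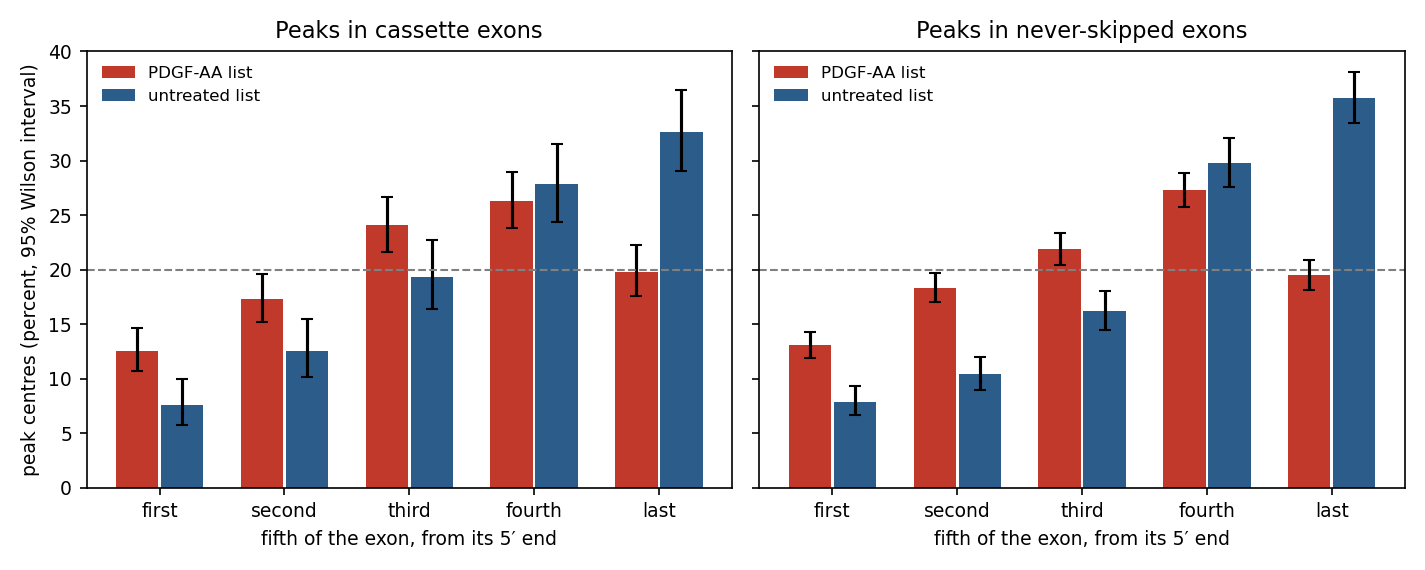
Percent of peak centres in each of 5 equal bins of the exon, from its 5′ end, for peaks in cassette exons (left) and in never-skipped exons of the same genes (right), in the PDGF-AA list (red) and the untreated list (blue), with 95% Wilson intervals. The dashed line marks an even spread, and the last bin holds 19.8% and 32.6% of centres in cassette exons.

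Purine-rich hexamers were denser under the peaks of both lists than in the rest of the same exons. The hexamer GAAGAA and its shifted forms AGAAGA and, in turn, AAGAAG, which overlap one another in such repeats, were counted on the transcript strand only, with every overlapping match. AGAAGA occurred 5.34 times per kb in PDGF-AA peaks in cassette exons and 1.37 times per kb in the rest of the same exons (317 and 361 matches), and 4.15 and 1.56 times per kb in the untreated list (125 and 256 matches). Unbound cassette exons held 1.16 per kb. At least 1 of the 3 hexamers was present in 32.4% of PDGF-AA peaks (29.8 to 35.2) and 22.0% of untreated peaks (18.9 to 25.5) in cassette exons, in 32.8% and 24.9% of peaks in never-skipped exons, and in 32.7% and 18.0% of all peaks of the lists. As whole exons, 43.3% of bound and 20.6% of unbound cassette exons held 1, though bound exons are longer. CACACA occurred 0.303 and 0.398 times per kb in the peaks, against 0.381 and 0.507 in the rest of these exons. The hexamers were chosen by the study on these libraries and are no independent evidence. They are not its full set, since GAAGCG, which it also named for the PDGF-AA peaks, is not reported here. A match is a description of sequence and not a binding site. No member peak held a perfect CA run of 12 nt or more.

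Member exons were spread over many genes. Of the 998 genes 815 had 1 bound cassette exon, 141 had 2, 30 had 3 and 12 had more than 3. Ubr4, an E3 ubiquitin ligase, had the most, 8 of its 65 cassette exons, of which 5 were bound in the PDGF-AA list alone and 3 in the untreated list alone. Col1a1, the type I collagen alpha chain and the main fibrillar collagen of mesenchyme, followed with 6 of 32, of which 3 were bound in both lists, 1 in the PDGF-AA list alone and 2 in the untreated list alone. Smarcc2 (5 of 24), Klc1 (5 of 14) and the splicing repressor Ptbp1 (4 of 10) were next. This order is by count and does not allow for how many cassette exons a gene has. Of all 11619 cassette exons compared, 10.7% were bound in either list. The bound exons of Col1a1, Klc1 and Ptbp1 were skipped in long-read models alone, and those of Ubr4 and Smarcc2 in another transcript outside these models.

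Of 6 gene lists, 5 were drawn up by function and 1 was named by the study on these samples. Each count below covers the genes with a cassette exon and a coding peak. Among matrix and adhesion genes (16 of 22), 4 cassette exons carried peaks of both lists, 6 of the PDGF-AA list alone and 3 of the untreated list alone. This was 10.0% and 7.0% of 100 cassette exons in the PDGF-AA and untreated lists, against 14.7% and 12.5% of never-skipped exons of these genes. The 7 genes with a bound cassette exon were Cd44, Col11a1, Col12a1, Col6a3, Fbln2, Fn1 and Vcan. Among cytoskeletal genes (19 of 22), 8 were bound in both lists, 4 in the PDGF-AA list alone and 3 in the untreated list alone, or 6.45% and 5.91% of 186, against 9.89% and 4.85% of never-skipped exons. Among endocytosis and trafficking genes (14 of 18), 4 were bound in both, 8 in the PDGF-AA list alone and 1 in the untreated list alone, or 8.82% and 3.68% of 136, against 7.97% and 3.62%. Among receptors, kinases and transcription factors (14 of 20), 3 were bound in both, 9 in the PDGF-AA list alone and 2 in the untreated list alone, or 13.3% and 5.56% of 90, against 17.0% and 7.19%. Among RNA-binding protein genes (15 of 20), 5 were bound in both, 7 in the PDGF-AA list alone and 1 in the untreated list alone, or 15.4% and 7.69% of 78, against 15.6% and 9.09%. Beside the 8.65% and 4.69% of all cassette exons, these shares rest on few exons, and no list was tested.

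Of the 5 genes the study named, Arhgap12, Cep55, Becn1, Wdr81 and Acap3, 1 had a bound cassette exon. It was exon 7 of 12 (195 nt) of Becn1, a regulator of autophagy and endosomes, with a peak at nucleotides 52 to 107 in the PDGF-AA list and none in the untreated list. The skipping of this exon is annotated in long-read models alone. In the PDGF-AA and untreated lists, 3.85% and 0.0% of 26 cassette exons of these genes were bound. For their 35 never-skipped exons the shares were 14.3% and 2.86%. The splicing event the study reported in Becn1 was retention of an adjacent intron. In Wdr81 and Acap3 it placed Srsf3 binding in an exon beside the alternative exon or intron.

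Within the lists, versican (Vcan), a chondroitin sulfate proteoglycan whose large exons 7 and 8 carry its glycosaminoglycan chains, had 1 PDGF-AA and 1 untreated peak in the 2880-nt exon 7, covering 108 and 23 nt, and 2 untreated peaks and no PDGF-AA peak in the 5217-nt exon 8. Fbln2, encoding the matrix protein fibulin-2, had the same 65-nt interval in both lists. Map4, a microtubule-associated protein, had 3 peaks in each list in a 3180-nt exon. Dnm2, the GTPase that severs endocytic vesicles, had peaks of 68 and 75 nt in an 87-nt exon, and Eps15l1, an endocytic adaptor, had 2 peaks in each list in a 198-nt exon and a PDGF-AA peak at nucleotides 50 to 150 of the 162-nt exon before it. Nfic, a transcription factor, had a PDGF-AA peak at nucleotides 0 to 30 and an untreated peak at 46 to 125 of a 126-nt exon, which do not overlap. Rbfox2, a splicing regulator, had peaks at nucleotides 0 to 69 and 0 to 45 of a 147-nt exon, and Clta and Cltb, the clathrin light chains, each had 1 PDGF-AA peak and no untreated peak in a 112-nt exon 4, named after their values were seen.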

How the data were processed

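Srsf3 eCLIP was performed on PDGF-AA-treated (10 ng/mL, 1 hour) and untreated iMEPM cells. The authors trimmed reads with cutadapt 1.18, collapsed unique molecular identifiers, removed reads of repetitive elements, mapped the rest with STAR 2.7.9 to GRCm39, called peaks with omniCLIP once per condition and annotated them with RCAS. The deposited unit is other: peak intervals with gene names, and no score, read number or other measured value. The submitters' processing notes name the builds GRCm38 and GRCm39, and the intervals were read as GRCm39. The PDGF-AA list rests on 1 and the untreated list on 2 Srsf3 libraries. Inputs and IgG libraries were not analysed here, and the lists of peaks unique to a condition were not used.

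Distinct intervals were placed on protein-coding transcripts of GENCODE M39, and overlapping exon versions of a gene were merged into 1 exon, cassette if any version was skipped. The gene of a peak was that of the exon, which the deposited gene names matched for 1102 PDGF-AA and 589 untreated peaks, while 9 peaks in each list stood under more than 1 gene. Genes compared had a cassette exon and a peak in an internal coding exon. No test was run, because each condition has 1 list. Shares carry 95% Wilson intervals, which cover counting error only, and peaks in the same exon or gene are not independent. Named exons were the 5 with the most peaks, the 5 bound in both lists with the largest smaller covered length, the 5 with the most covered nucleotides in each list alone, the 5 shortest, those of the 5 genes with the most bound cassette exons, and up to 4 of each gene list by covered nucleotides. CCDS-skipped exons were added after their values were seen. A few exons that these rules pick are not reported here. Members and gene lists were chosen with earlier results of these data known. Alternatives changed the transcripts, the overlap rule, the skipping rule, the genes and the coordinates. Scripts used Python 3.11.15, numpy 2.4.6, pandas 2.3.3, scipy 1.17.1, statsmodels 0.14.6, pysam 0.24.0 and matplotlib 3.10.9 and were tested on simulated data.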

Additional observations from a re-analysis of the deposited data

How the results depend on the processing

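Of 104 values recomputed under other settings, 77 stayed the same, 26 moved and 1 reversed. A share or ratio stayed the same if it lay within the counting error of the main value. Counts, and differences between bound and unbound exons, did so within 1.5 times. Some of the 77 could not move. No member peak held a CA run, so leaving such peaks out returned the main values. Merging peaks cannot change the numbers of bound exons or genes. Of 32 more under settings chosen after seeing the data, 6 stayed the same and 26 moved. The largest shifts came from the definition of a cassette exon. Requiring skipping in at least 2 transcripts left 469 PDGF-AA and 252 untreated peaks in 412 and 227 exons of 439 genes, with 7.002% (PDGF-AA) and 3.86% (untreated) of cassette exons bound. Requiring an intron that joins both neighbouring exons left 579 PDGF-AA and 306 untreated peaks in 518 and 275 exons of 593 genes, with 7.89% (PDGF-AA) and 4.19% (untreated) bound.

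The transcript sets were chosen after seeing the data. Without long-read models 327 PDGF-AA and 191 untreated peaks were found in 267 and 153 exons of 282 genes. In the PDGF-AA and untreated lists 7.23% and 4.14% of cassette exons were then bound, the ratio to the gene's own exons was 0.677 and 0.750, 34.6% and 62.3% of peaks overlapped the other list, and 16.5% and 27.2% reached the 5′ splice site alone. With CCDS transcripts only, 75 PDGF-AA and 61 untreated peaks were found in 55 and 45 exons of 62 genes, and in the PDGF-AA and untreated lists 6.63% and 5.42% of cassette exons and 10.7% and 5.62% of never-skipped exons were bound. The ratio was then 0.531 in the PDGF-AA list, 45.3% of PDGF-AA and 60.7% of untreated peaks overlapped the other list, and 14.8% of untreated peaks reached the 5′ splice site alone.

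Counting only peaks wholly inside an exon gave 7.48% of cassette and 8.26% of never-skipped exons bound in the PDGF-AA list, and 3.47% and 3.67% in the untreated list. Requiring 50% of a peak to overlap the other list gave 24.2% of PDGF-AA peaks shared. Limiting genes to those with a peak in a cassette exon gave 15.6% (PDGF-AA) and 8.45% (untreated) of cassette exons and 7.94% (PDGF-AA) of never-skipped exons, a choice that favours cassette exons by its construction. The difference in upstream intron median, bound minus unbound, was -88.0 nt in the main comparison and -47.0 nt in these genes. The difference in exons that are a multiple of 3 was -3.92 percentage points, -2.24 among exons of at least 50 nt, and reversed to 1.51 in genes with such a peak. The cause was not tested. In the PDGF-AA and untreated lists, AGAAGA was 3.89 and 2.65 times as dense in peaks as in the rest of the exons, and 4.63 and 3.59 times as dense as in unbound exons.

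No paired analysis was possible because peaks were called once per condition over its libraries, although libraries of both conditions carry the number 2. For the same reason no library was left out, and without scores no stricter peak threshold was set. The lists do not give the reads behind single peaks, so the depth of each peak is unknown.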
